A study of Mus musculus with 8 samples.

Results

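The genes described here are 10 genes used to recognise dendritic cells: Flt3, Zbtb46, Clec9a, Xcr1, Batf3, Irf4, Ccr7, Itgae, Siglech and Tcf4. They were taken by symbol from a deposited table of 48440 genes, and each of the 10 symbols matched 1 row. Of these 10 genes, 9 had at least 1 count in some library, and 7 passed the filter on low counts that precedes the test between diets. All libraries came from cells sorted for the macrophage surface proteins CD11b and F4/80, so these genes were measured in a population that was not sorted to hold dendritic cells.

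The cells were macrophages from the pancreatic islets of wild-type male C57BL/6J mice that were 16 weeks old. Starting at 8 weeks of age, the mice ate either chow (8% fat, 21% protein, 71% carbohydrate, 10.88 kJ/g) or a high-fat diet (HFD, 45% fat, 20% protein, 35% carbohydrate, 19.67 kJ/g) for 8 weeks. There were 4 libraries per diet, chow replicates 1 to 4 and HFD replicates 5 to 8, and each pooled the material of 2 mice, so the spread between libraries is a spread between pools. Levels are given as counts per 1000000 counts (CPM), scaled between libraries by the trimmed mean of M values (TMM), and ± gives the SD over the 4 libraries of a diet unless another number is stated.

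Dendritic cells capture antigen and present it to T cells. Conventional dendritic cells need the cytokine receptor FLT3 and are marked by the transcription factor ZBTB46. One branch, cDC1, takes up dead cells and depends on BATF3, a second branch, cDC2, uses IRF4, and plasmacytoid dendritic cells (pDC) are interferon producers that depend on TCF4. Mature dendritic cells switch on CCR7 to travel to lymph nodes. Several of these genes are also used outside the lineage: IRF4 by lymphocytes and macrophages, ZBTB46 by endothelial cells, CCR7 and the integrin chain encoded by Itgae by T cells, SIGLEC-H by microglia, and TCF4 by many cell types.

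Library totals ranged from 4288665 to 6391247 counts, and a count of 0 in 1 library allows up to 0.468 to 0.708 CPM, taken as 3 counts and covering counting error only. The 10 genes held 0.0574% to 0.0744% of a library's counts. Transcripts of the sort markers were abundant. The F4/80 gene Adgre1 averaged 506 ± 78.4 and 419 ± 74.2 CPM on chow and HFD, and the CD11b gene Itgam averaged 312 ± 71.3 and 337 ± 98.3 CPM (SD, n = 4). All 14 macrophage markers had counts. The most abundant of the 14 macrophage markers were Lyz2, Csf1r and Cx3cr1, at 2494 ± 529, 916 ± 99.3 and 782 ± 218 CPM on chow. Other cell types were present unevenly. Summed stellate cell and fibroblast markers (9 of 9 with counts) ran from 1.87 to 24.0 CPM on chow and from 7.03 to 421 CPM on HFD, with HFD replicate 8 the lowest HFD library. Summed acinar markers (13 of 13 with counts) ran from 0.225 to 2543 CPM on chow and from 36.4 to 1346 CPM on HFD. Summed islet endocrine markers (10 of 10 with counts) ran from 436 to 1748 CPM on chow and from 902 to 1782 CPM on HFD. Of the 8 B cell markers 4 had counts (Cd79b, Ms4a1, Ebf1 and Cd22), Cd79a, Pax5 and Fcer2a were among those with none, and the list summed to 5.18 to 10.6 CPM on chow and 5.73 to 30.4 CPM on HFD. Of the 9 T and NK cell markers with a row, 4 had counts: Cd4, at 25.2 ± 16.6 CPM on chow and 28.4 ± 16.9 CPM on HFD, held nearly all of them, Klrb1c had 11 counts over all libraries, Cd8a 2 and Cd3d 1, and the others, among them Cd3e and Cd3g, had none. This list summed to 10.8 to 48.3 CPM on chow and 9.84 to 43.0 CPM on HFD. Of the 6 neutrophil markers only Csf3r had counts, at 59.4 ± 26.5 and 71.7 ± 28.4 CPM. Of the 6 monocyte markers 3 had counts, and the list summed to 656 to 1083 CPM on chow and 688 to 1182 CPM on HFD. Ccr2, the receptor for monocyte chemokines, held most of this sum, at 886 ± 184 and 943 ± 174 CPM, F13a1 was at 22.9 ± 24.1 and 62.3 ± 60.8 CPM, and Ly6c2 and Plac8 had no count.

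Per kilobase of merged exons, Siglech was the most abundant of the 10 genes and Ccr7 the least. Mean levels over the 8 libraries were 51.2 ± 12.95 CPM per kilobase for Siglech, 14.6 ± 10.7 for Clec9a, 13.7 ± 1.59 for Tcf4, 7.45 ± 4.32 for Irf4 and 3.39 ± 3.57 for Batf3 (SD, n = 8). The other members were lower, at 1.21 ± 1.25 CPM per kilobase for Zbtb46, 1.15 ± 1.59 for Xcr1, 0.501 ± 0.526 for Flt3, 0.277 ± 0.721 for Itgae and 0 for Ccr7. Siglech was above Clec9a in 8 of 8 libraries and Tcf4 above Irf4 in 7 of 8. The remaining neighbours in this order were not separated beyond their spread: Clec9a exceeded Tcf4 in only 2 of 8 libraries although its mean was higher, Irf4 exceeded Batf3 in 6 of 8, and from Batf3 downwards each gene exceeded the next in 3 to 6 of 8. The merged exons of Tcf4 add up to 27382 bases, against 8577 bases in its longest protein-coding transcript, and with that transcript as the length Tcf4 was at 43.7 CPM per kilobase and ranked above Clec9a in 8 of 8 libraries.

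**Figure D1:**
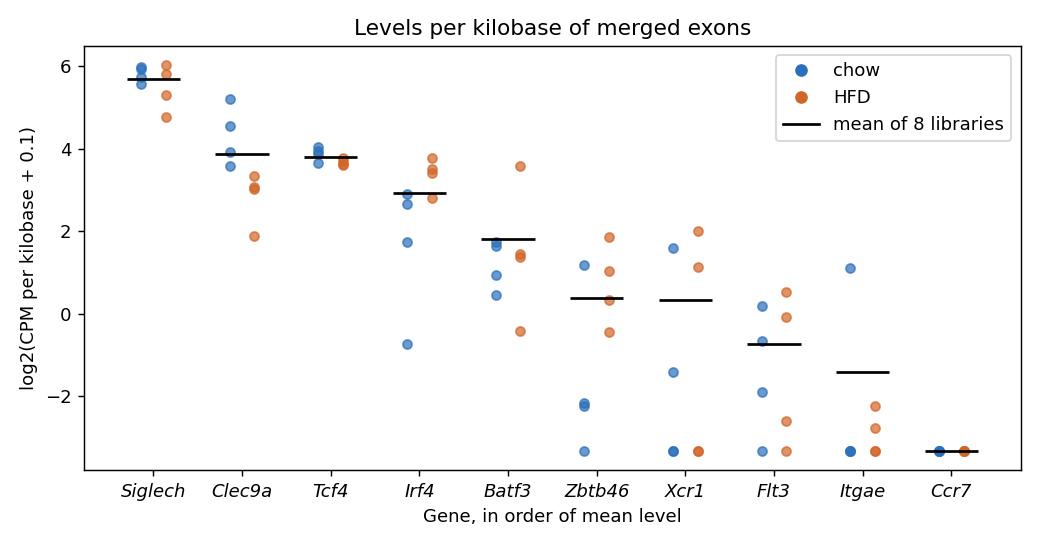
Levels of the 10 genes per kilobase of merged exons, as log2(CPM per kilobase + 0.1), in order of mean level; points are libraries (4 chow, 4 HFD) and the black line is the log2 of the mean of 8 libraries plus 0.1. Siglech stands above the other genes in every library, the points from Zbtb46 to Itgae spread widely, and Ccr7 has no counts.

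The comparison of HFD with chow asks which transcripts of islet macrophages differ after the diet. Of the 10 genes, the largest separation was in Clec9a, which was lower in every HFD library than in every chow library, while Irf4 and Zbtb46 had higher means on HFD with overlapping groups. Siglech and Tcf4, the members with the most counts, were 1.2-fold and 1.16-fold higher on chow, with overlapping groups. The 10 genes summed to 620.1 to 742.5 CPM on chow and to 542.7 to 689.6 CPM on HFD. None of the 7 members tested passed the threshold of an adjusted p of 0.05 (edgeR quasi-likelihood test, Benjamini-Hochberg over all genes), and the background was also 0% of 10129 genes. At an unadjusted p of 0.05 in edgeR, 1 member was lower, Clec9a, against a background of 2.74% of genes lower, and 0 were higher, against 2.61%; either way round the background was 5.35%. Without chow replicate 2 the unadjusted p of Clec9a was 0.0518 (log2 fold change -1.16), so that this call was lost. DESeq2 called 0 of the 7 members, against 0.255% of the 9822 genes to which it gave an adjusted p, and limma-voom called 0, against 0.00987%. The groups did not overlap for 1 of the 7, Clec9a, where the background was 1.71% of genes with all HFD libraries below all chow libraries and 1.68% with all above, 3.39% together. In bulk libraries, fewer cells of a type and less RNA per cell cannot be told apart.

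**Figure D2:**
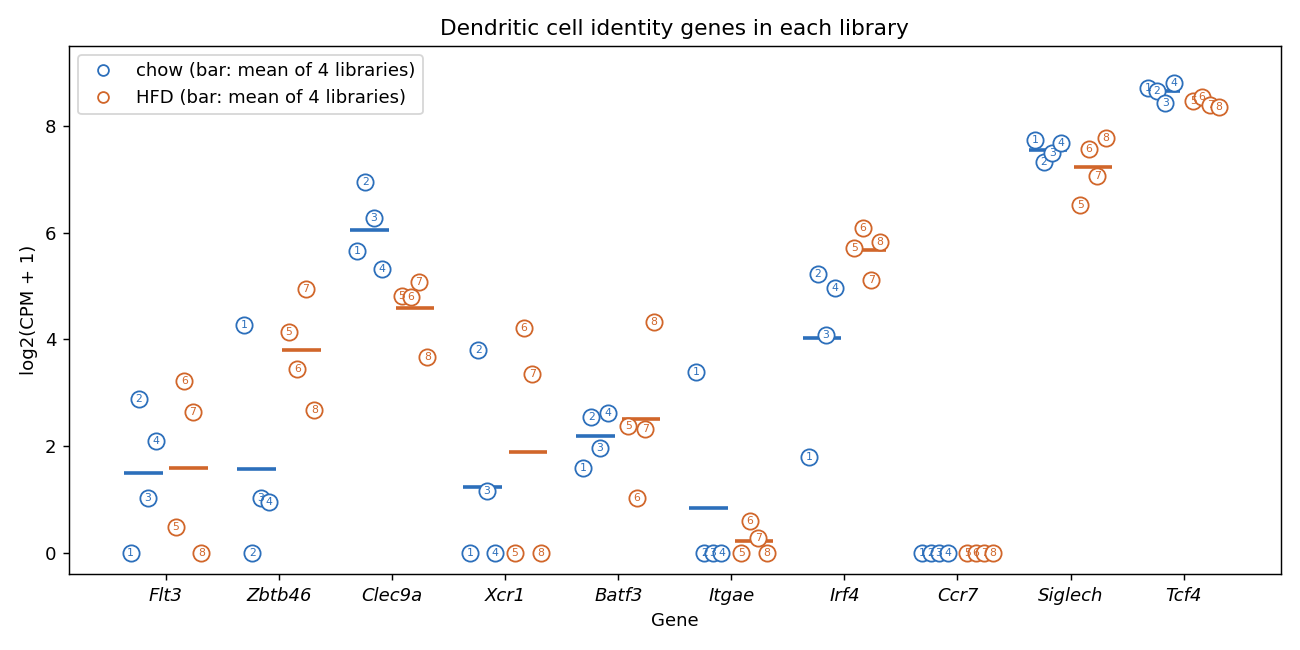
Level of each of the 10 genes as log2(CPM + 1) in every library; numbers in the circles are replicate numbers, blue for chow and orange for HFD, and bars are the mean of the 4 log2 values. The circles of the diets do not overlap for Clec9a, and Zbtb46, Xcr1 and Itgae each have 1 chow library far above the other 3.

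Flt3 (chromosome 5, 147330741 to 147400489) encodes the receptor tyrosine kinase through which dendritic cell precursors are maintained. It was at 0, 6.4, 1.04 and 3.30 CPM in chow replicates 1 to 4 and at 0.397, 8.34, 5.27 and 0 CPM in HFD replicates 5 to 8. The highest values were in chow replicate 2 and HFD replicates 6 and 7, and the groups overlapped throughout. The log2 fold change of HFD over chow was 0.37 (SE 1.55, edgeR adjusted p = 0.987), and it turned to -0.03 (SE 1.63) without chow replicate 1 and to -0.51 (SE 1.87) without HFD replicate 6. The gene for its ligand, Flt3l, had no count in any library.

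Zbtb46 (chromosome 2, 181387762 to 181459426), the zinc finger factor of conventional dendritic cells, was at 18.4, 0, 1.04 and 0.944 CPM on chow and at 16.7, 9.90, 29.9 and 5.42 CPM on HFD. Chow replicate 1 lay within the HFD range, whereas the other 3 chow libraries lay below all HFD libraries. The log2 fold change was 1.60 (SE 1.29, edgeR adjusted p = 0.987), and it was 4.53 (SE 1.45, adjusted p = 0.584) without chow replicate 1. This was the lowest adjusted p of its alternatives, which reached up to 0.999. Endothelial markers, of which 5 of 7 had counts and Flt1 and Esam had none, summed to 0 to 7.65 CPM on chow and 0.402 to 13.7 CPM on HFD, and HFD replicate 7 was the highest HFD library for both. On chow they did not share their highest library: the endothelial sum was 7.65 CPM in replicate 2, where Zbtb46 was at 0, and 4.04 CPM in replicate 1, where Zbtb46 was highest. Their part in the Zbtb46 level was not tested.

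Clec9a (chromosome 6, 129408862 to 129424763) encodes a C-type lectin receptor with which cDC1 recognise the exposed actin of dead cells. It was at 49.6, 122, 76.3 and 38.9 CPM on chow and at 27.2, 26.6, 32.7 and 11.8 CPM on HFD. The lowest chow library, replicate 4, was above the highest HFD library, replicate 7. Mean levels were 71.6 ± 36.8 CPM on chow and 24.6 ± 8.91 CPM on HFD (SD, n = 4), a log2 fold change of -1.54 (SE 0.50), equal to a level 2.91-fold higher on chow. The unadjusted p in edgeR was 0.00621, rank 77 of 10129 genes, and the adjusted p was 0.752, with a range of 0.173 (DESeq2) to 0.961 (without HFD replicate 5) over the alternatives. HFD replicate 8, with the lowest Clec9a level, also had the lowest summed stellate and fibroblast markers of the HFD libraries, 7.03 CPM against 211 to 421 CPM in the others. On chow, replicate 2 had the lowest sum, 1.87 CPM, and the highest Clec9a level. A relation between these markers and Clec9a was not tested. The exons of Clec9a share 184 bases with Clec1b on the same strand, and Clec1b totalled 10 counts on chow and 22 on HFD, against 1533 and 504 for Clec9a.

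Xcr1 (chromosome 9, 123852315 to 123862029), the chemokine receptor that defines cDC1, had counts in 4 of the 8 libraries. It was at 0, 13, 1.24 and 0 CPM on chow and at 0, 17.5, 9.27 and 0 CPM on HFD. Counts were present in chow replicates 2 and 3 and HFD replicates 6 and 7, and the 3 libraries above 9 CPM were the 3 with the highest Flt3. In chow replicate 2 Clec9a was also at its highest. Within HFD, Clec9a was at 26.6 and 32.7 CPM in replicates 6 and 7, against 27.2 and 11.8 CPM in replicates 5 and 8. All of these were below every chow library. Xcr1 did not pass the filter; in the fit without a filter its log2 fold change was 0.91 (SE 1.56, edgeR adjusted p = 0.881). Its ligand gene Xcl1 had 1 count in all, in HFD replicate 7.

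Batf3 (chromosome 1, 191097847 to 191108945), the basic leucine zipper factor on which cDC1 depend, was at 2.02, 4.84, 2.90 and 5.19 CPM on chow and at 4.17, 1.04, 4.00 and 19.1 CPM on HFD. Apart from HFD replicate 8, the diets covered similar ranges. The log2 fold change of 0.91 (SE 1.21, edgeR adjusted p = 0.987) turned to -0.285 (SE 1.44) without HFD replicate 8. In that library, where Batf3 was highest, Xcr1 and Flt3 were at 0 and Clec9a was at its lowest. Itgae (chromosome 11, 73090583 to 73147446), which encodes the CD103 integrin chain, had 42 counts (9.44 CPM) in chow replicate 1, 3 counts in HFD replicate 6, 1 in HFD replicate 7 and 0 elsewhere. It did not pass the filter, and without one its log2 fold change was -3.49 (SE 2.46, edgeR adjusted p = 0.589), resting on that 1 chow library. In chow replicate 1 the only T and NK cell marker with counts was Cd4, at 10.8 CPM, and the list summed to 10.8 CPM there, the lowest chow value. The part of such cells in the Itgae level was not tested. Itgb7, the partner chain of CD103, had no count in chow replicate 1 and 19.6 CPM in HFD replicate 7.

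The 250 bases before the RefSeq start of Flt3, Clec9a and Xcr1 are shown because these genes are used for conventional dendritic cells, the latter 2 for cDC1. Chow replicate 2 was the highest chow library for all of them. Other cDC1 genes differed: on chow, Batf3 was highest in replicate 4 (5.19 CPM) and Itgae in replicate 1 (9.44 CPM). Of Flt3, Clec9a and Xcr1, only Clec9a was lower in every HFD library than in every chow library. The window of Siglech is shown because this gene was the most abundant member per kilobase. These windows lie on GRCm38.p6 at chr5:147400490-147400739 (minus strand), chr6:129408612-129408861 (plus strand), chr9:123862030-123862279 (minus strand) and chr7:55767934-55768183 (plus strand), and are written 5′ to 3′ on the gene's strand. Capitals mark the E-box CANNTG, the motif of E proteins such as TCF4.
Flt3: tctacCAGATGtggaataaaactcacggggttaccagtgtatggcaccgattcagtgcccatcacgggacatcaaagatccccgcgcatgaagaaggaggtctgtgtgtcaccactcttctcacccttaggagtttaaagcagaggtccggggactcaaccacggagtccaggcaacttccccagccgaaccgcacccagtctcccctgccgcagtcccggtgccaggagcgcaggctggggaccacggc
Clec9a: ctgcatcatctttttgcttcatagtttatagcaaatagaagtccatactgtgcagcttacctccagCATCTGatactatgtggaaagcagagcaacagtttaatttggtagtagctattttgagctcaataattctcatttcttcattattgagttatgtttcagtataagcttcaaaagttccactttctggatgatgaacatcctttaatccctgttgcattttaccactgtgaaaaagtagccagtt
Xcr1: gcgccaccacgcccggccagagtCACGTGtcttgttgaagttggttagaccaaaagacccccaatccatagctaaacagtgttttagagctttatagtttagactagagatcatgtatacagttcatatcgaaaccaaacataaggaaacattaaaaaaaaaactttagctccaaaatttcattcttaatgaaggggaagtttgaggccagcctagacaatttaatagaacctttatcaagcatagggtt
Siglech: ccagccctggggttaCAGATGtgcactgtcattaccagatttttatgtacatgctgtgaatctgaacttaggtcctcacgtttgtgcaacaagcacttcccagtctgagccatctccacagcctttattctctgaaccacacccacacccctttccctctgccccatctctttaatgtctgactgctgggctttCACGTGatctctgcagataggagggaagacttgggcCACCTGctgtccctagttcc
Promoter windows of 7 of the 10 members were searched. No window was examined for Itgae, Ccr7 and Tcf4, so whether their promoters hold either motif was not tested. Of these 7, 6 held the E-box CANNTG, on either strand, which is its own reverse complement, and 66.2% of 32851 windows of the same length did. The AP-1 type motif TGANTCA, to which BATF3 binds with JUN proteins, was in 1 of 7, Zbtb46, and in 6.7% of all windows. The 2 motifs were searched separately and did not overlap there. The Zbtb46 window (chromosome 2, 181424389 to 181424638) lay inside the gene, which runs from 181387762 to 181459426. The Batf3 window (chromosome 1, 191098164 to 191098413) lay inside its gene, from 191097847 to 191108945. Both windows thus precede a RefSeq start inside the annotated gene. GC content of the printed windows was 59.2% for Flt3, 35.6% for Clec9a, 38.8% for Xcr1 and 50.8% for Siglech. Siglech held 3 E-boxes, their first bases lying 235, 56 and 20 bases before the start. These matches describe letters in a window and were not tested against the levels.

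Irf4 (chromosome 13, 30749226 to 30766976), the interferon regulatory factor of cDC2, was at 2.47, 36.4, 16.0 and 30.2 CPM on chow and at 51.2, 66.9, 33.5 and 55.6 CPM on HFD. All HFD libraries except replicate 7 were above all chow libraries, and chow replicate 1 was far below the rest. Means were 21.3 ± 15.2 CPM on chow and 51.8 ± 13.9 CPM on HFD (SD, n = 4), with a log2 fold change of 1.28 (SE 0.64), a 2.43-fold higher level on HFD. The unadjusted p was 0.0593 and the adjusted p 0.935 in edgeR. Without a filter the unadjusted p in edgeR was 0.0314 and the adjusted p 0.428, the lowest adjusted p of its alternatives, which reached up to 0.998. The unadjusted p was also under 0.05 in DESeq2 (0.0428), in limma-voom (0.0359) and in edgeR without chow replicate 2 (0.0304). The direction was the same in all 17 alternatives, with log2 fold changes of 0.91 to 1.68. Beside it, summed B cell markers were 5.73 CPM in HFD replicate 6, where Irf4 was highest, and 30.4 CPM in HFD replicate 7, where it was lowest of the HFD libraries. Of the B cell markers, Cd79b had 35 counts on chow and 181 on HFD (log2 fold change 2.28, SE 1.51, edgeR adjusted p = 0.987), Cd22 had 14 and 57, Ebf1 68 and 48, Ms4a1 47 and 9, and Cd79a and Pax5 none. The part of B cells in the Irf4 level was not tested.

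Ccr7 (chromosome 11, 99144196 to 99155077), the receptor for lymph node chemokines, had no count in any of the 8 libraries, which allows at most 0.468 to 0.708 CPM in each. The genes of its ligands, Ccl19 and Ccl21a, had no count either.

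Siglech (chromosome 7, 55768178 to 55778925), a sialic acid-binding lectin of pDC that signals through the adaptor encoded by Tyrobp, was at 212, 160, 179 and 204 CPM on chow and at 91.0, 188, 132 and 219 CPM on HFD. The chow libraries were close together, and the HFD libraries reached both below and above them. The log2 fold change was -0.26 (SE 0.28, edgeR adjusted p = 0.987). Tyrobp was at 213 ± 34.2 CPM on chow and 200.1 ± 35.0 CPM on HFD (SD, n = 4).

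Tcf4 (chromosome 18, 69343356 to 69689079), the E protein of pDC, was at 419, 400, 343 and 448 CPM on chow and at 352, 371, 337 and 328 CPM on HFD. Chow replicate 3 lay within the narrow HFD range and the other chow libraries above it. Its log2 fold change of -0.21 (SE 0.18, edgeR adjusted p = 0.987) had the smallest standard error of the 7 members tested.

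**Figure D3:**
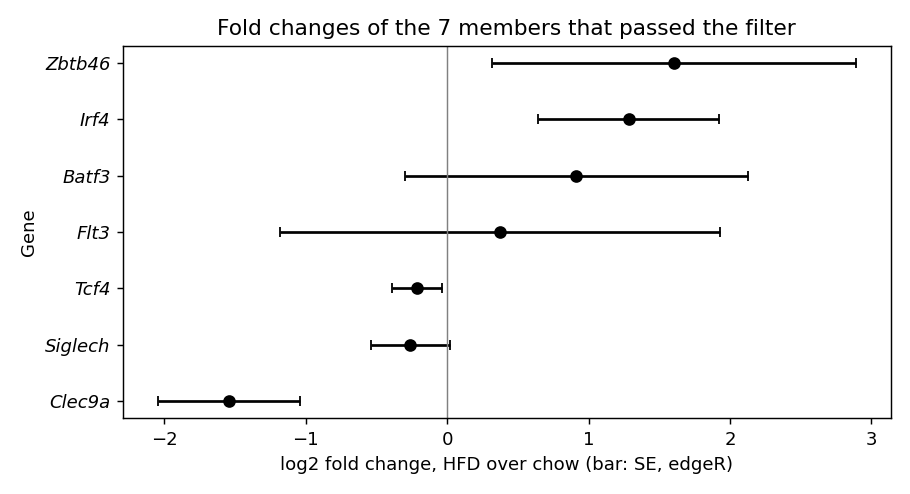
Log2 fold change of HFD over chow for the 7 members that passed the filter, with bars of 1 standard error from the edgeR fit. Clec9a lies lowest at -1.54, Tcf4 and Siglech lie close to 0 with short bars, and the bars of Siglech, Flt3 and Batf3 cross 0.

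Wider lists of dendritic cell genes are described by counts beside those of all 10129 genes tested, of which 48.6% were higher on HFD, with a median log2 fold change of -0.02. No gene of these lists passed the threshold in edgeR or was called by DESeq2. The lists mix genes at 0 with genes that macrophages also express.

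In the cDC1 list, 16 of 17 genes with a row had counts, 11 were tested, 7 were higher and 4 lower on HFD, and the median log2 fold change was 0.35. Its most abundant genes were Cadm1, an adhesion molecule, at 396 ± 62.4 CPM on chow and 344 ± 36.1 CPM on HFD, Tlr3, a receptor for double-stranded RNA, at 126 ± 24.6 and 133 ± 29.4 CPM, and Irf8, the factor that acts with BATF3, at 136 ± 77.2 and 95.5 ± 14.8 CPM (SD, n = 4). After Clec9a, the smallest p-values belonged to Rab7b, Id2 and Cd24a. Rab7b, a small GTPase gene, was at 39.1, 65.3, 67.2 and 48.1 CPM on chow and at 101, 99.3, 102 and 98.4 CPM on HFD. Every HFD library was above every chow library (log2 fold change 0.87, SE 0.35, edgeR adjusted p = 0.812). Id2, an inhibitor of E proteins such as TCF4 that cDC1 need, was at 12.4, 6.24, 6.84 and 5.90 CPM on chow and at 7.15, 19.4, 49.9 and 41.2 CPM on HFD. HFD replicate 5 lay within the chow range (log2 fold change 1.91, SE 0.79, edgeR adjusted p = 0.861). Cd24a was at 3.29 ± 2.70 CPM on chow and 16.7 ± 10.5 CPM on HFD.

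In the cDC2 list, 11 of 16 genes had counts and 6 were tested, 5 higher and 1 lower, with a median of 1.11. Sirpa and Notch2, which macrophages also express, were at 385 ± 71.5 and 306 ± 51.2 CPM on chow and at 381 ± 65.9 and 310.4 ± 64.4 CPM on HFD. Mgl2, a lectin gene, was at 3.59, 13.3, 1.87 and 12.7 CPM on chow and at 18.7, 15.8, 22.3 and 14.7 CPM on HFD. The groups did not overlap (log2 fold change 1.18, SE 0.90, edgeR adjusted p = 0.987). Cd209a was at 1.70 ± 2.18 CPM on chow and 9.67 ± 9.53 CPM on HFD, and Tnip3 at 16.7 ± 19.5 and 34.6 ± 17.6 CPM. Esam, Cd7, Ltb, Tbx21 and Cd209d had no count.

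In the list of mature migratory dendritic cells, 25 of 27 genes had counts and 14 were tested, 5 higher and 9 lower, with a median of -0.32. Its members with the most counts were Tmem176b, Tmem176a and Tmem123, at 413 ± 92, 305 ± 85.2 and 189 ± 91.6 CPM on chow and at 288 ± 104, 223 ± 48.5 and 156 ± 13.9 CPM on HFD. Birc3, an inhibitor of apoptosis gene, was at 111 ± 16.0 and 81.9 ± 21.4 CPM. Cd274, which encodes PD-L1, was at 34.4 ± 26.4 and 62.2 ± 43.1 CPM. Ccr7 and Mreg had no count.

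In the pDC list, 18 of 21 genes with a row had counts and 13 were tested, 5 higher and 8 lower, with a median of -0.24. Beside Tcf4 its most abundant genes were Zeb2, a zinc finger factor, at 1481 ± 254 CPM on chow and 1216 ± 63.0 CPM on HFD, and Tlr7, a sensor of single-stranded RNA, at 234 ± 91.8 and 313 ± 48.9 CPM. Tlr9, a sensor of unmethylated DNA, was at 151 ± 40.0 and 101 ± 28.2 CPM, and the receptor phosphatase gene Ptprs at 34.4 ± 10 and 16.6 ± 7.31 CPM. Ly6d, Spib and Pacsin1 were the only genes of this list with no count in any library, beside the 18 with counts.

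**Figure D4:**
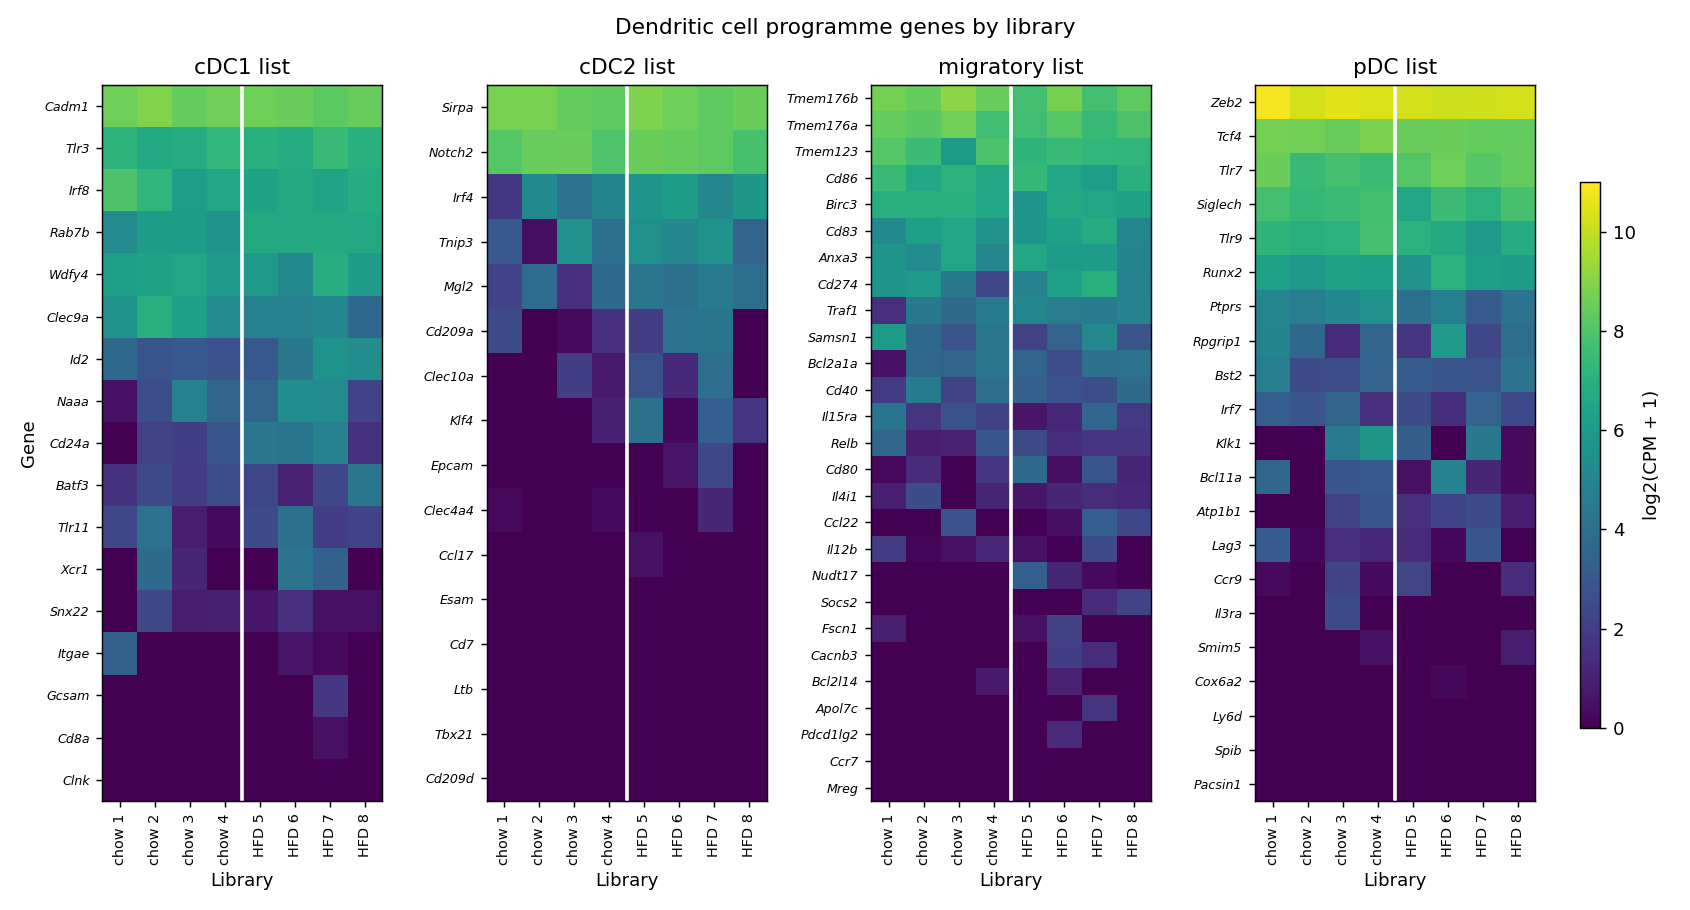
Levels of the genes in the cDC1, cDC2, migratory and pDC lists as log2(CPM + 1), 1 row per gene ordered by mean and 1 column per library, with a white line between chow and HFD. In each list a few genes such as Cadm1, Sirpa, Tmem176b and Zeb2 are high in all 8 libraries, while genes such as Ccr7, Ltb and Spib are at 0 in all of them.

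In the list of genes common to conventional dendritic cells, all 14 had counts and 11 were tested, 7 higher and 4 lower, with a median of 0.23. Itgax, which encodes CD11c, was at 349 ± 54.8 CPM on chow and 408 ± 36.5 CPM on HFD, and Ciita, the master regulator of MHC class II genes, at 137 ± 11.8 and 154 ± 48.5 CPM. Dnase1l3, a secreted nuclease gene, was at 47.2, 89.8, 102 and 79.5 CPM on chow and at 93.4, 37.2, 399 and 296 CPM on HFD. HFD replicates 7 and 8 were above all chow libraries and HFD replicate 6 below all of them (log2 fold change 1.37, SE 0.55, edgeR adjusted p = 0.863). Of 17 ligands, partners and antagonists of the members, 13 had counts and 11 were tested, 5 higher and 6 lower, with a median of -0.09. Syk, the kinase through which CLEC9A signals, was at 173 ± 25.3 and 163 ± 48.6 CPM. The other E protein genes, Tcf12 and Tcf3, were at 68.3 ± 21.3 and 4.13 ± 3.41 CPM on chow and at 82.3 ± 20.1 and 1.86 ± 1.39 CPM on HFD. Id3 had no count. For comparison, all 14 macrophage markers were tested, 5 higher and 9 lower, with a median of -0.08; the smallest p-values were those of Mertk, an efferocytosis receptor gene, at 42.0 ± 29.4 and 131 ± 65.0 CPM, C1qb, at 645 ± 119 and 462 ± 73.7 CPM, and C1qa, at 75.2 ± 63.3 and 35.2 ± 15.6 CPM.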

How the data were processed

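RNA was sequenced from islet macrophages in 4 chow and 4 HFD libraries, each pooled from 2 mice, after amplification of 500 pg with the Ovation RNA-Seq System V2, per the labels' protocols. The authors deposited expected counts per Ensembl gene, not scaled between libraries, in 1 table. The submitters' processing notes name FastQC, Trim Galore, STAR and GRCm38, with no version, and the counting program is not given in the sources used here. Of the values above 0, 7.66% to 8.32% were not whole numbers, and all were rounded.

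Counts were tested with edgeR (version 4.0.16, R version 4.3.3): TMM scaling, the filterByExpr filter (minimum count 10), a robust quasi-likelihood fit on diet alone, and p-values adjusted by Benjamini-Hochberg over 10129 genes at 0.05, two-sided. The step was tested on simulated data. Nothing in the labels says that libraries differ in batch. No 2 libraries agreed within sampling noise: over 28 pairs, the chi-square divided by its degrees of freedom was at least 39.4. Coordinates and exon lengths are from GENCODE M21 (GRCm38), which held 48058 of the 48440 identifiers. Promoters are from RefSeq, GRCm38.p6. The members and lists were chosen with earlier results of these data known; of 191 list symbols 3 had no row. Named genes were all 10 members, up to 4 genes per list with the smallest p, up to 3 with the highest level, and markers of other cell types at 0. Adgre1, Itgam, Itgb7, Cdh1, Clec1b, Xcl1, Ms4a1, Cd3d and the genes at 0 in the dendritic cell and partner lists were chosen after their values were seen. Alternatives were other scalings, filters and tests (DESeq2 version 1.42.0, limma version 3.58.1), a fit that was not robust, removal of abundant non-macrophage genes, and each library left out; transcript length as a divisor was chosen after seeing the data.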

Additional observations from a re-analysis of the deposited data

Results flagged for a closer look

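The check covered 126 groups of 4 libraries, from the members, the list sums and part of the other named genes. Cd79b, Ms4a1, Klrb1c, Xcl1, Cd3d, Cd8a and Clec1b were not checked. A library was counted as standing apart where its gap to the nearest other library exceeded Dixon's critical share of the group's range. For normally distributed values chance gives about 1 in 20, a rate that does not hold for genes with several libraries at 0. A group with counts in only 1 library, such as Itgae on chow, has a share of 1 at any level. For 3 members a chow library stood apart. Zbtb46 was at 18.4 CPM in chow replicate 1, against 0 to 1.04 CPM in the other chow libraries. Itgae was at 9.44 CPM in the same library, with the others at 0. Xcr1 was at 13 CPM in chow replicate 2, against 0 to 1.24 CPM. Chow replicate 1 also stood apart for Id2, at 12.4 CPM against 5.90 to 6.84 CPM, and for summed stellate cell and fibroblast markers, at 24.0 CPM against 1.87 to 4.56 CPM. Birc3 was at 87.3 CPM in chow replicate 4, against 118 to 120 CPM. HFD replicate 7 stood apart for Cdh1, the gene of E-cadherin, which binds CD103, at 25.5 CPM against 0 to 2.81 CPM, for Itgb7, at 19.6 CPM against 0.199 to 2.26 CPM, and for summed acinar markers, at 1350 CPM against 36.4 to 93.2 CPM.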

How the results depend on the processing

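The count of members passing the threshold was 0 in all 17 alternatives. The count over all genes was 0 in edgeR, with 542 genes at an unadjusted p under 0.05. It was 45 with no filter, 25 with DESeq2, 1 with limma-voom, and 0 to 11 with 1 library left out, the 11 without HFD replicate 8. Of the 7 members tested, Clec9a, Siglech, Tcf4, Irf4 and Zbtb46 kept their direction in all alternatives, Clec9a with log2 fold changes of -1.75 to -1.16. Flt3 turned to -0.17 and Batf3 to -0.008 with limma-voom; with 1 library left out they ranged from -0.511 to 1.27 and from -0.285 to 1.27. The median log2 fold change over the 7 members tested was 0.374 in the main fit. It turned to -0.21 with at least 5 CPM required in 4 libraries, where 5 members remained, and ranged from -0.255 to 1.06 with 1 library left out. With 1 library left out, the medians were 0.17 to 0.88 for the cDC1 list, 0.93 to 1.62 for the cDC2 list and -0.303 to 0.034 for the migratory list. The migratory median was 0.17 with no filter, with 25 genes in place of 14. The other list medians stayed within the spread between libraries. With the longest protein-coding transcript as length, Siglech was at 75.3 and Tcf4 at 43.7 CPM per kilobase. The cause of these differences between settings was not tested. Library totals as the scaling moved the median of all genes by 0.075 (log2), and no member's direction changed with scaling. No paired analysis was possible because the diets share no replicate number (1 to 4 for chow, 5 to 8 for HFD). Counts under 100 per group for Flt3, Itgae and, on chow, Batf3, Zbtb46 and Xcr1 limit what could be seen for those genes.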
